A study of Homo sapiens with 36 samples.

Results

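Kinesins are motor proteins that walk along microtubules, and the human genome encodes a family of them under the symbols KIF and KIFC. Every protein-coding gene with such a symbol in GENCODE release 44 was taken, which gave 42 genes, and all 42 were among the 29872 genes of the deposited table. They were divided by role into 10 mitotic kinesins (KIF11, KIF14, KIF15, KIF18A, KIF18B, KIF20A, KIF23, KIF2C, KIF4A and KIFC1), 4 other kinesins linked to cell division (KIF20B, KIF22, KIF2B and KIF4B), 15 transport kinesins and 13 kinesins with other roles. LNCaP cells, a long-established line from human prostate cancer, had received vehicle, a CDK4-selective inhibitor (AU2-94 or atirmociclib, each at 1 or 2 µM) or the CDK4/6 inhibitor ribociclib at 2 µM. Each of the 12 groups, 6 harvested after 24 h and 6 after 72 h, had 3 biological replicates, which made 36 RNA-seq libraries. The labels also list 2 µM as the dose of the vehicle groups. Wells harvested at 72 h had been seeded at a lower density than wells harvested at 24 h, so time and density cannot be told apart. The comparisons asked how the level of kinesin RNA differed between each inhibitor and vehicle, between the compounds at matched dose and time, between doses and between time points.

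Mitotic kinesins build and move the spindle: some push its poles apart, some shorten microtubule ends at the chromosomes, and some gather in the middle of the dividing cell for cytokinesis. They are needed only for a short part of the cell cycle, and their genes are known for being transcribed late in the cycle, after the retinoblastoma protein has been phosphorylated by CDK4, CDK6 and other kinases. Transport kinesins carry vesicles, organelles and RNA in resting and dividing cells alike, mostly towards the plus ends of microtubules, and bind their cargo through light chains and adaptors.

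The deposited values were normalised counts, which summed to between 20675156 and 22692555 per library (median 21490183). The depth before normalisation is unknown, and 4.06% of the values above 0 and under 20 lay within 0.01 of a whole number. The kinesins together took 0.163% to 0.232% of a library's normalised counts. The 6 luminal prostate markers read here, KLK3 and KRT18 among them, were all present. Their summed level was 73329 to 77036 in the vehicle libraries and 101860 to 110569 in the treated libraries at 24 h, and 72981 to 74397 against 111119 to 139736 at 72 h. Of 11 markers of other cell types, 8 (CHGA, COL1A2, DCN, INSM1, KRT5, PECAM1, PTPRC and TP63) stayed under 10 normalised counts in every library. COL1A1, NCAM1 and SYP reached 10 in at least 1 library. At 24 h the mean log2 fold change over the treatments was -0.51 for SYP and -0.48 for COL1A1. By limma (adjusted p at most 0.05), 4 of 10 tested pairs of marker and treatment were lower at 24 h (13.5% to 16.2% of all genes). At 72 h it was 1 of 10 (15.3% to 19.8%). The summed level of the 11 was 426 to 545 in vehicle and 221 to 438 in treated libraries at 24 h, and 517 to 659 against 509.7 to 664 at 72 h. The part of either marker list in the kinesin results was not tested. In bulk RNA, fewer cells of a type and less RNA per cell cannot be told apart, so a lower level may be either.

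Promoter sequence was not itself used to choose the genes, and it is described here without a test. The mitotic class was chosen by role, and genes of that role are known for late transcription. Its share of late cell cycle words is therefore not independent of the choice. RefSeq start sites on GRCh38.p14 were matched for 34 of the 42 genes, and the 250 bases before to 50 bases after each start were searched on both strands. The words were TTTGAA and its variant TTTAAA, the core of the cell cycle homology region (CHR), an element of late cell cycle promoters that the DREAM and MuvB complexes bind; CCAAT, the word bound by NF-Y; and the E2F-like words TTTGGCGC, TTTCGCGC, TTTCCCGC and TTTGCCGC. The stretch from 110 bases before to 20 bases after the start is shown for 7 mitotic kinesins, with 2 abundant transport kinesins below them for contrast. Capitals mark the words, read on either strand, so that CCAAT on the opposite strand appears as ATTGG.
KIF11: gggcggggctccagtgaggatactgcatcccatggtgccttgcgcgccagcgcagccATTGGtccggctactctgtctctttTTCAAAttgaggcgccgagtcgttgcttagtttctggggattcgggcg
KIF15: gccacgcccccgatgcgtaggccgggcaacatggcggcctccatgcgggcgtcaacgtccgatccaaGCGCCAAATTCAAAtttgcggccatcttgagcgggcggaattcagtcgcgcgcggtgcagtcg
KIFC1: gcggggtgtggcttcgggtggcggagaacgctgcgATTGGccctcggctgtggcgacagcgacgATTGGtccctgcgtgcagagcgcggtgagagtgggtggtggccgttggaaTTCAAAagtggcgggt
KIF20A: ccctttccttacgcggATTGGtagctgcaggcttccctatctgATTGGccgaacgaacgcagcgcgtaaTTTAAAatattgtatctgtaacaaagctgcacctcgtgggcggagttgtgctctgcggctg
KIF23: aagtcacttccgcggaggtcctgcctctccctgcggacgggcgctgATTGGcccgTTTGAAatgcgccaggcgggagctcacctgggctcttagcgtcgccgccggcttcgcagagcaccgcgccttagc
KIF4A: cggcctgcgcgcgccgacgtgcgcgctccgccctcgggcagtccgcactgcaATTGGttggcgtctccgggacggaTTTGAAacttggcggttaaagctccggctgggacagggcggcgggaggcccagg
KIF2C: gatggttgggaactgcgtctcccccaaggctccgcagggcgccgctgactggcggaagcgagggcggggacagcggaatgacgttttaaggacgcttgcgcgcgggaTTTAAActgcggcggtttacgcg
KIF5B: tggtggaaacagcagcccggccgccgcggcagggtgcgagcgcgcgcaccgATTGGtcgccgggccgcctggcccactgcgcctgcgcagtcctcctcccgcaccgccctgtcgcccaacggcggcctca
KIF1C: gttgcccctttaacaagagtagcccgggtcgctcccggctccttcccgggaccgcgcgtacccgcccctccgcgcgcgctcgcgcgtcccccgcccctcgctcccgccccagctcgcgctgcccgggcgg

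These windows lie at chr10:92593020-92593149, plus strand for KIF11; chr3:44761684-44761813, plus strand for KIF15; chr6:33391713-33391842, plus strand for KIFC1; chr5:138179002-138179131, plus strand for KIF20A and chr15:69414239-69414368, plus strand for KIF23. The others are chrX:70289994-70290123, plus strand for KIF4A, chr1:44739727-44739856, plus strand for KIF2C, chr10:32056406-32056535, minus strand for KIF5B and chr17:4997840-4997969, plus strand for KIF1C. A CHR word was present in the promoters of 10 of the 10 mitotic kinesins, against 27.9% of 27305 genes with a RefSeq promoter of the same length. Of these 10, 8 held TTTGAA (18.2% of all genes), whereas KIF20A and KIF2C held only the variant TTTAAA (14.5%). Counted from the start site as position 1, the first letter of the nearest CHR word stood at position -28 in KIF11, -35 in KIF15, -41 in KIF20A, -55 in KIF23 and -34 in KIF4A, and at 5 in KIFC1. CCAAT was found in 8 of 10 (not in KIF15 or KIF2C), against 39.7% of all genes, and in all 8 it stood upstream of that CHR word, at -53 in KIF11, -64 in KIF23 and -58 in KIF4A. TTTGAA and CCAAT occurred together in 7 of 10 mitotic promoters and in 7.26% of all genes. Among 11 transport kinesins, 2 held a CHR word (KIF5B at -140 and KIF16B at -241) and 4 held CCAAT. Of the 4 other division-linked genes, KIF20B and KIF4B held a CHR word. None of the 9 matched kinesins with other roles held a CHR word, and 3 held CCAAT. Among the 34 promoters an E2F-like word was found only in KIF15, at -43 and directly next to the CHR word, and in KIF25 (3.99% of all genes). A match of letters is not evidence of a bound site, and a window without a match says nothing of other sequences.

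**Figure D1:**
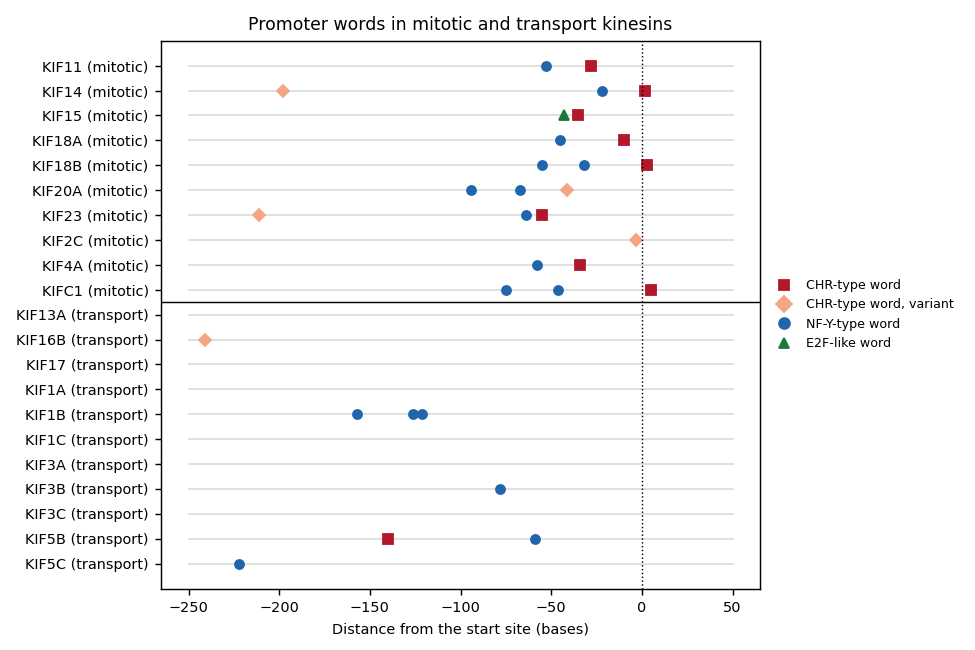
Promoter words in 10 mitotic and 11 transport kinesins, plotted by the distance in bases of the first letter from the RefSeq start site; squares are TTTGAA, diamonds TTTAAA, circles CCAAT and triangles E2F-like words. Every mitotic promoter holds a square or a diamond, most of them close to the start, whereas 2 transport promoters do.

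At 24 h all 10 mitotic kinesins fell with every treatment, each by more than 2-fold and past the test (limma on log2(normalised count + 1), Benjamini-Hochberg adjusted p at most 0.05). Over all 16137 genes tested, 2.4%, 2.94%, 4.22%, 4.82% and 3.66% were lower by this rule, in the order AU2-94 1 µM, AU2-94 2 µM, atirmociclib 1 µM, atirmociclib 2 µM and ribociclib. This order is kept below. The median log2 fold change of the 10 was -1.64, -2.08, -2.90, -2.90 and -2.26, while the median over all genes lay between -0.00323 and 0.00495. Summed over the class, the treated libraries held 30.7%, 21.4%, 12.6%, 12.1% and 20.1% of the vehicle level. At 72 h the same 10 genes were still lower past the adjusted p with every treatment, against 17%, 15.3%, 19.8%, 19.6% and 15.4% of 16341 genes. The falls were smaller, with medians of -0.65, -0.53, -1.31, -1.54 and -0.86 in the same order, and the number past 2-fold was 1, 0, 9, 9 and 2 (background 0.869%, 0.838%, 2.67%, 3.67% and 1.54%). The summed level at 72 h was 63.4%, 69.1%, 39.3%, 33.0% and 55.5% of vehicle. For each of the 10 genes, at both times, all 15 treated libraries lay below all 3 vehicle libraries. The treatments of a time point share its vehicle libraries, so their counts are not independent of each other.

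**Figure D2:**
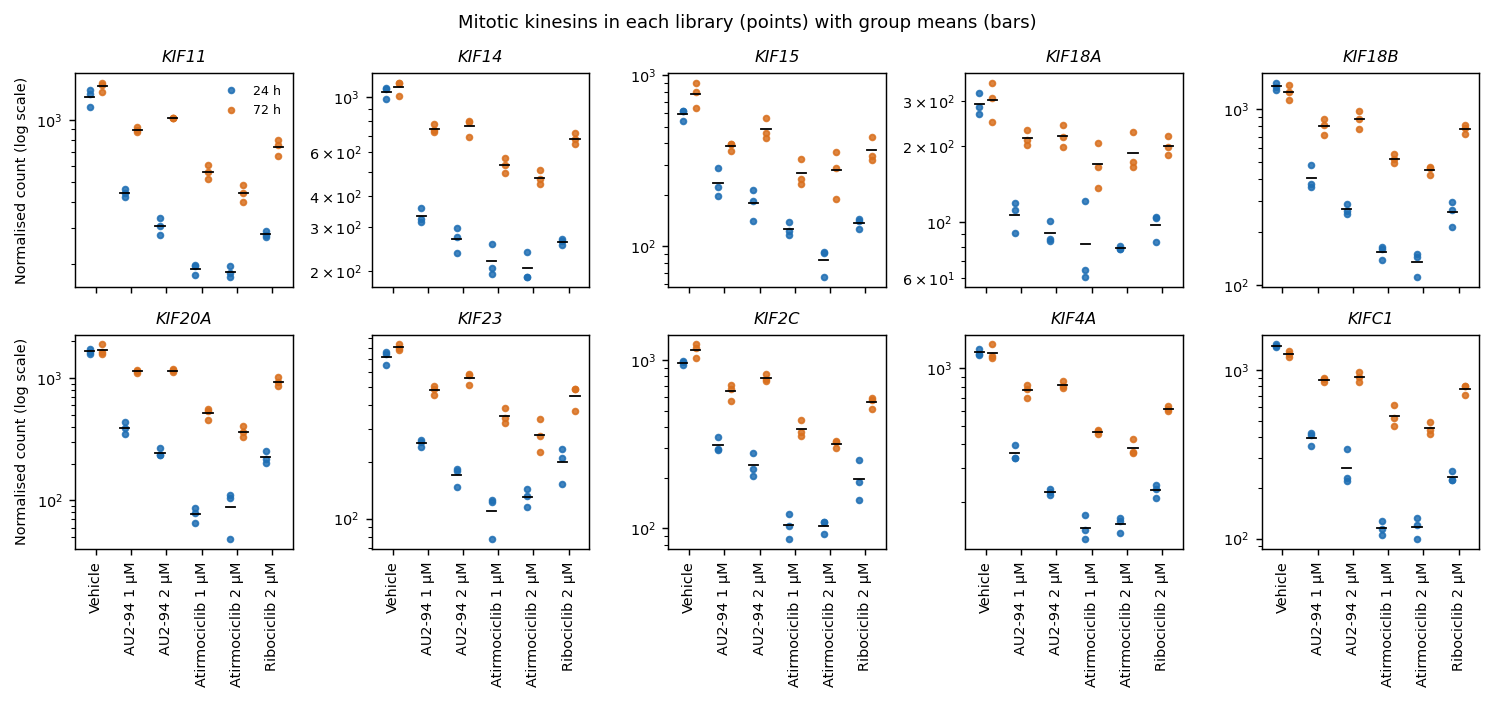
Normalised counts (log scale) of the 10 mitotic kinesins in each of the 36 libraries; points are libraries, short bars group means, blue is 24 h and orange 72 h. The treated libraries lie below vehicle in every panel, and the treated group means are nearer to vehicle at 72 h. At 24 h the group means are lowest with atirmociclib (for KIF20A single libraries hold 48.4 to 112, against 1584 to 1735 in vehicle). Atirmociclib libraries of KIF14, KIF15 and KIF18A overlap those of other treatments at that time.

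KIF11, also called Eg5, cross-links microtubules of opposite direction and slides them apart, which separates the spindle poles. At 24 h its normalised counts were 1392, 1335 and 1154 in vehicle, 442, 423 and 461 under 1 µM AU2-94, 304, 276 and 332 under 2 µM, 197, 177 and 194 under 1 µM atirmociclib, 172, 194 and 181 under 2 µM and 275, 289.8 and 269 under ribociclib. At 72 h they were 1513, 1482 and 1369.6 in vehicle, 893, 928 and 871 under 1 µM AU2-94, 1024, 1022 and 1019 under 2 µM, 557, 602 and 517 under 1 µM atirmociclib, 400.4, 480.4 and 440.2 under 2 µM and 755, 665 and 797 under ribociclib. Every treated library lay below the vehicle libraries, and at 72 h the AU2-94 libraries were the closest to vehicle. KIF11 had log2 fold changes at 24 h of -1.54 and -2.09 for the AU2-94 doses, -2.76 and -2.82 for those of atirmociclib and -2.21 for ribociclib (SE 0.09, adjusted p 7.36e-14 to 1.28e-09). Those at 72 h were -0.70 and -0.51 for the AU2-94 doses, -1.38 and -1.72 for those of atirmociclib and -0.98 for ribociclib (SE 0.08, adjusted p 5.33e-12 to 0.000113). KIF15 works beside KIF11 and can keep the poles apart when KIF11 is inhibited. Its normalised counts at 24 h were 618, 542 and 622 in vehicle, 221, 196 and 288 under 1 µM AU2-94, 214, 140.3 and 185 under 2 µM, 122, 139 and 116 under 1 µM atirmociclib, 92.7, 90.6 and 65.6 under 2 µM and 141, 144 and 126 under ribociclib. The 72 h values were 798, 903 and 645 in vehicle, 397, 396 and 362 under 1 µM AU2-94, 458, 428 and 562 under 2 µM, 232, 325 and 248 under 1 µM atirmociclib, 189.6, 288 and 357 under 2 µM and 321, 435 and 335 under ribociclib. Replicates of KIF15 were more spread than those of KIF11, but vehicle and treated libraries did not overlap. Over the treatments it changed on the log2 scale by -2.84 to -1.35 at the earlier time (SE 0.17, adjusted p 2.78e-10 to 1.01e-05). At 72 h the range was -1.54 to -0.69 (SE 0.19, adjusted p 3.45e-06 to 0.0108). The call with AU2-94 at 2 µM at 72 h was lost without replicate 2 of that group (adjusted p 0.0510) or replicate 2 of vehicle (0.0579).

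KIFC1, or HSET, walks towards minus ends and gathers microtubules at the spindle poles. Normalised counts of KIFC1 at 24 h were 1395, 1368 and 1418 in vehicle, 423, 352 and 414 under 1 µM AU2-94, 228, 220.4 and 341 under 2 µM, 105, 127 and 114 under 1 µM atirmociclib, 119.9, 132 and 99.6 under 2 µM and 223, 221 and 252 under ribociclib. By 72 h they were 1193, 1247 and 1297 in vehicle, 882, 899 and 853 under 1 µM AU2-94, 909.6, 855 and 970.3 under 2 µM, 517, 623 and 467 under 1 µM atirmociclib, 419, 442 and 493 under 2 µM and 805, 714 and 800.0 under ribociclib. The 24 h atirmociclib libraries were the lowest and all treated libraries stayed under the lowest vehicle library at both times. The 24 h log2 fold changes of KIFC1 were -3.58 to -1.82 (SE 0.15, adjusted p 1.01e-12 to 3.68e-08). Its log2 fold change at 72 h was -1.47 to -0.45 (SE 0.09, adjusted p 3.73e-10 to 0.00119). A stretch of 126 bases of its transcripts is 98.4% identical to the ribosomal protein gene RPL12, which had a mean normalised count of 15041. A stretch of 126 bases is also 99.2% identical to NBEAL1, with a mean of 1805. In addition, 424 exon bases of KIFC1 overlap the pseudogene RPL12P1 on the other strand. How the authors' counting divided such reads is not given in the sources used here, so the level of KIFC1 is less certain than that of KIF11.

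KIF20A (MKLP2) carries the chromosomal passenger complex to the middle of the anaphase spindle. It had the largest fall among the 10 mitotic kinesins with each of the 5 treatments at 24 h. Its 24 h normalised counts were 1641, 1735 and 1584 in vehicle, 345, 394 and 433 under 1 µM AU2-94, 233, 234 and 266 under 2 µM, 64.8, 86.5 and 78.8 under 1 µM atirmociclib, 105, 112 and 48.4 under 2 µM and 218, 204 and 251 under ribociclib. At 72 h the libraries held 1557, 1879 and 1621 in vehicle, 1146, 1109 and 1173 under 1 µM AU2-94, 1118, 1156 and 1181 under 2 µM, 560.3, 538 and 457 under 1 µM atirmociclib, 329.8, 403 and 362 under 2 µM and 1025, 928 and 854 under ribociclib. No treated library reached the vehicle range at either time, and at 72 h the AU2-94 and ribociclib libraries stood well above those with atirmociclib. KIF20A had 24 h log2 fold changes of -2.08 and -2.75 for the AU2-94 doses, -4.42 and -4.30 for those of atirmociclib and -2.88 for ribociclib (SE 0.22, adjusted p 1.47e-11 to 9.96e-07). At 72 h they were -0.56 and -0.55 for the AU2-94 doses, -1.70 and -2.20 for those of atirmociclib and -0.85 for ribociclib (SE 0.09, adjusted p 1.21e-12 to 0.00023). KIF20A shares 132 exon bases with BRD8 and 74 with CDC23, both on the opposite strand, and the strand setting of the counting is not given in the sources used here.

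KIF23 (MKLP1) is the motor of centralspindlin, the complex that bundles microtubules where the cleavage furrow forms. Its normalised counts at 24 h were 655, 746 and 759 in vehicle, 262, 238 and 254 under 1 µM AU2-94, 178, 148 and 184 under 2 µM, 126, 123 and 78.1 under 1 µM atirmociclib, 116, 143 and 132 under 2 µM and 209.8, 153 and 235 under ribociclib. After 72 h they were 805, 836 and 786 in vehicle, 504, 484 and 452 under 1 µM AU2-94, 585, 509 and 577 under 2 µM, 387, 341 and 321 under 1 µM atirmociclib, 226, 272 and 336 under 2 µM and 485, 371 and 487 under ribociclib. The lowest single library, at 78.1, was 1 of those with atirmociclib at 1 µM at 24 h. KIF23 changed by -2.74 to -1.51 on the log2 scale at 24 h (SE 0.18, adjusted p 6.74e-10 to 3.66e-06). The change was -1.56 to -0.54 at 72 h (SE 0.13, adjusted p 1.31e-08 to 0.00352). KIF4A binds chromosome arms and, with PRC1, limits the growth of midzone microtubules. For KIF4A the 24 h normalised counts were 1176, 1265 and 1187 in vehicle, 342, 341 and 396 under 1 µM AU2-94, 233, 226 and 218 under 2 µM, 171, 129 and 142 under 1 µM atirmociclib, 165, 159 and 138 under 2 µM and 235, 247 and 209 under ribociclib. Those at 72 h were 1159, 1329.7 and 1124 in vehicle, 820.0, 780.0 and 702 under 1 µM AU2-94, 810.4, 785 and 853 under 2 µM, 475, 469.9 and 455 under 1 µM atirmociclib, 363, 364 and 425 under 2 µM and 613, 632 and 601 under ribociclib. Its replicates were close together, and the groups with atirmociclib did not overlap those with AU2-94 at either time. KIF4A had log2 fold changes from -3.04 to -1.75 at 24 h (SE 0.11, adjusted p 2.83e-13 to 1.95e-09). They were -1.65 to -0.56 at 72 h (SE 0.08, adjusted p 1.19e-11 to 4.95e-05). KIF14 brings citron kinase to the midbody late in cytokinesis. Its 24 h normalised counts were 1079, 1091 and 983 in vehicle, 358, 315 and 324 under 1 µM AU2-94, 273, 236 and 299 under 2 µM, 206, 195 and 257 under 1 µM atirmociclib, 189, 237 and 188 under 2 µM and 262, 254 and 268 under ribociclib. Its 72 h counts were 1015, 1143 and 1140.0 in vehicle, 737, 726 and 779 under 1 µM AU2-94, 805, 694 and 796 under 2 µM, 567, 533 and 494 under 1 µM atirmociclib, 446, 469 and 510.4 under 2 µM and 678, 651 and 718 under ribociclib. KIF14 was lower in all treated libraries, with log2 fold changes of -2.36 to -1.66 at 24 h (SE 0.12, adjusted p 2.02e-11 to 8.72e-09) and -1.21 to -0.52 at 72 h (SE 0.08, adjusted p 7.82e-10 to 8.01e-05).

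KIF2C (MCAK) does not walk but takes microtubule ends apart at centromeres, where it corrects faulty attachments. Normalised counts of KIF2C at 24 h were 938, 981 and 970.2 in vehicle, 349, 289.9 and 296 under 1 µM AU2-94, 281, 224 and 205 under 2 µM, 122, 86.5 and 104 under 1 µM atirmociclib, 108, 109 and 92.7 under 2 µM and 254, 189 and 148 under ribociclib. The 72 h libraries held 1023, 1234 and 1181 in vehicle, 675, 569 and 707 under 1 µM AU2-94, 773, 754 and 824 under 2 µM, 373, 355 and 441 under 1 µM atirmociclib, 329, 300.3 and 325 under 2 µM and 579, 511 and 594 under ribociclib. Atirmociclib libraries were lowest at both times and did not overlap any other group. KIF2C showed log2 fold changes of -3.21 to -1.63 at 24 h (SE 0.17, adjusted p 4.28e-11 to 1.08e-06) and of -1.84 to -0.54 at 72 h (SE 0.10, adjusted p 5.12e-11 to 0.000481). KIF18B acts on the ends of astral microtubules together with KIF2C. It was counted at 1291, 1411 and 1346 in vehicle, 360.2, 375 and 482 under 1 µM AU2-94, 255, 289 and 266 under 2 µM, 160.1, 164 and 139.8 under 1 µM atirmociclib, 144, 151 and 111 under 2 µM and 299, 268 and 213 under ribociclib at 24 h. At 72 h KIF18B was counted at 1259.8, 1135 and 1368 in vehicle, 875, 709.8 and 814 under 1 µM AU2-94, 979.7, 876 and 775 under 2 µM, 559.9, 495 and 521 under 1 µM atirmociclib, 424, 462 and 470.1 under 2 µM and 724, 809 and 787 under ribociclib. The AU2-94 and ribociclib libraries of KIF18B overlapped at 24 h, and those with atirmociclib lay below them. KIF18B differed from vehicle by log2 fold changes of -3.32 to -1.74 at 24 h (SE 0.14, adjusted p 1.61e-12 to 3.79e-08) and -1.47 to -0.52 at 72 h (SE 0.10, adjusted p 6.65e-10 to 0.000505).

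KIF18A damps the swinging of chromosomes at the spindle equator. It had the lowest normalised counts of the 10 in vehicle and changed least among them at 24 h with every treatment except AU2-94 at 1 µM, where KIF15 did. Its counts at 24 h were 286, 267 and 325 in vehicle, 119, 90.5 and 111 under 1 µM AU2-94, 84.0, 101 and 85.7 under 2 µM, 121, 64.9 and 60.5 under 1 µM atirmociclib, 78.0, 78.7 and 80.8 under 2 µM and 104, 83.8 and 105 under ribociclib. At 72 h the counts were 310.3, 354 and 249 in vehicle, 211, 230.2 and 202 under 1 µM AU2-94, 242, 198 and 218 under 2 µM, 206, 165 and 137 under 1 µM atirmociclib, 173, 165 and 227 under 2 µM and 219.6, 184 and 198 under ribociclib. The vehicle libraries lay above all treated libraries, by a narrow margin at 72 h (lowest vehicle library 249, highest treated library 242). Log2 fold changes of KIF18A at 24 h were -1.45 and -1.69 for the AU2-94 doses, -1.89 and -1.87 for those of atirmociclib and -1.58 for ribociclib (SE 0.21, adjusted p 1.07e-06 to 3.68e-05). At 72 h those of KIF18A were -0.49 and -0.46 for the AU2-94 doses, -0.85 and -0.69 for those of atirmociclib and -0.59 for ribociclib (SE 0.16, adjusted p 0.000344 to 0.0367). At 72 h the call with AU2-94 at 1 µM was lost without replicate 1 or 3 of that group or replicate 1 or 2 of vehicle (adjusted p 0.0609 to 0.123). That at 2 µM was lost without replicate 2 or 3 of that group or replicate 1 or 2 of vehicle (0.0808 to 0.167), and also with no filter (0.0608), equal totals (0.0509) or no trend (0.0503). That with ribociclib was lost without replicate 2 of vehicle (0.0555).

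Among the other division-linked kinesins, KIF20B, a motor of the central spindle that is needed for the final cut between daughter cells, fell with every treatment at 24 h. Its normalised counts were 1581, 1094 and 1138 in vehicle, 778, 469 and 756 under 1 µM AU2-94, 633, 544 and 591 under 2 µM, 416, 605 and 481 under 1 µM atirmociclib, 479, 519.8 and 419 under 2 µM and 721, 779 and 469.7 under ribociclib at 24 h, without overlap between vehicle and treated libraries. At 72 h they were 1230.1, 1179 and 1464 in vehicle, 904, 1147 and 817 under 1 µM AU2-94, 1189, 861 and 1052 under 2 µM, 948, 1233 and 890.4 under 1 µM atirmociclib, 996, 647 and 788 under 2 µM and 1119, 1017 and 890.1 under ribociclib, and treated and vehicle libraries overlapped. KIF20B had 24 h log2 fold changes of -0.94 and -1.09 for the AU2-94 doses, -1.34 and -1.41 for those of atirmociclib and -0.97 for ribociclib (SE 0.20, adjusted p 2.80e-05 to 0.00188). At 72 h the test was passed with AU2-94 at 1 µM (-0.44, adjusted p 0.0456, but 0.0519 with the replicate block) and with atirmociclib at 2 µM (-0.69, adjusted p 0.00238). The call with AU2-94 at 1 µM was lost with no filter, quantile normalisation, equal totals or no trend (adjusted p 0.0678 to 0.0858) and on leaving out any of 9 single libraries, with adjusted p up to 0.180. These were replicates 1, 2 and 3 of vehicle, 1 and 3 of AU2-94 1 µM, 3 of AU2-94 2 µM, 1 of atirmociclib 1 µM, 3 of atirmociclib 2 µM and 2 of ribociclib. KIF22 (Kid), which pushes chromosome arms from the poles, changed less. Its log2 fold change was -0.17, -0.38 and -0.46 with AU2-94 at 2 µM and atirmociclib at 1 and 2 µM at 24 h, and lay between -0.49 and -0.22 with AU2-94 and atirmociclib at 72 h (adjusted p 1.84e-06 to 0.0203 over these 7). With ribociclib KIF22 did not pass at either time (-0.06 and -0.01, SE 0.05 and 0.06). KIF2B was above 0 in 1 of 36 libraries, and KIF4B, an intronless relative of KIF4A, never exceeded 5.81, so neither was tested.

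In most pairs of transport kinesin and treatment the test was not passed, and the calls went in both directions. The summed level of the class was 92.3% to 100.4% of vehicle at 24 h and 97.1% to 112% at 72 h. By treatment, 3, 3, 2, 1 and 4 of the 12 tested at 24 h were lower past the adjusted p (background 13.5%, 14.9%, 15.4%, 16.2% and 15.2%). At that time 0, 0, 2, 2 and 1 were higher (background 14.3%, 16%, 16.6%, 18.6% and 16.8%). Of 15 tested at 72 h, 3, 1, 1, 2 and 2 were lower (background 17%, 15.3%, 19.8%, 19.6% and 15.4%), and 5, 4, 6, 4 and 4 were higher (background 15.4%, 14.2%, 20%, 20.9% and 15.5%). Their median log2 fold change ranged from -0.07 to 0.02 over the treatments at 24 h, and from 0.10 to 0.24 at 72 h. The 72 h medians were not stable in sign: without 1 library that of AU2-94 at 2 µM was -0.02 (its replicate 2 left out) and that of ribociclib was -0.02 (its replicate 1 left out). With quantile normalisation that of ribociclib was 0.03 and that of AU2-94 at 1 µM 0.06. Over the 60 pairs of gene and treatment at 24 h this made 13 lower and 5 higher, a split that was 16 and 11 with quantile normalisation and 20 and 3 with every library scaled to the same total. None passed 2-fold at 24 h, and at 72 h KIF5C did with both doses of atirmociclib (background for higher levels 4.06% and 3.87%).

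**Figure D3:**
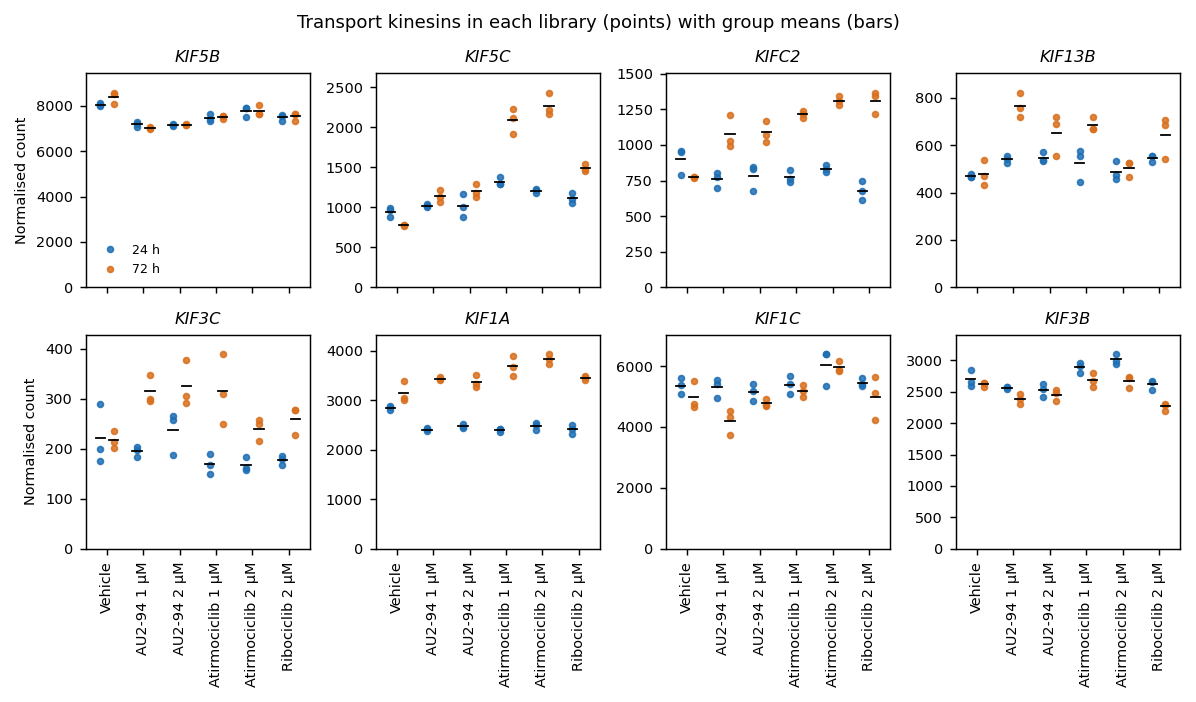
Normalised counts of 8 transport kinesins in each library on axes that start at 0; points are libraries, short bars group means, blue is 24 h and orange 72 h. KIF5B stays between 6979 and 8583 in all 36 libraries, and KIF5C at 72 h rises from 765 to 781 in vehicle to 1912 to 2434 with atirmociclib.

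KIF5A, KIF5B and KIF5C are the heavy chains of conventional kinesin (kinesin-1); KIF5B is found in most cells, whereas KIF5A and KIF5C are best known from neurons. KIF5B was the most abundant kinesin per kilobase of exon, with a mean of 1371 normalised counts per kilobase in vehicle at 24 h. It was ahead of KIF1C (624), KIFC1 (460.0, less certain as stated above), KIF3B (441) and KIF20A (429). Its normalised counts at 24 h were 8027, 7989 and 8117 in vehicle, 7224, 7053 and 7274 under 1 µM AU2-94, 7113, 7148 and 7183 under 2 µM, 7439, 7625 and 7324 under 1 µM atirmociclib, 7905, 7895 and 7492 under 2 µM and 7349.7, 7577 and 7594 under ribociclib. At 72 h KIF5B gave 8071, 8527 and 8583 in vehicle, 7039, 7084 and 6979 under 1 µM AU2-94, 7174, 7160.5 and 7201 under 2 µM, 7414, 7564 and 7557 under 1 µM atirmociclib, 8039, 7652 and 7638 under 2 µM and 7626, 7631 and 7343 under ribociclib. All 15 treated libraries were below the 3 vehicle libraries at each time, but by little. KIF5B had 24 h log2 fold changes of -0.16 and -0.17 for the AU2-94 doses, -0.11 and -0.05 for those of atirmociclib and -0.10 for ribociclib (SE 0.03), passing with all but atirmociclib at 2 µM. At 72 h its changes were -0.25 and -0.23 for the AU2-94 doses, -0.16 and -0.11 for those of atirmociclib and -0.16 for ribociclib (SE 0.03), all past the test (adjusted p 1.81e-05 to 0.0161). Some of these calls turned on single libraries or on the fit. That with atirmociclib at 1 µM at 24 h was lost without its replicate 3 or vehicle replicate 3 (adjusted p 0.0620 and 0.0501). The call with ribociclib at 24 h was lost without its replicate 1 or vehicle replicate 1 or 3 (0.0531 to 0.0974), with no filter (0.0524) or with no trend (0.0654). The call with atirmociclib at 2 µM at 72 h was lost without its replicate 2 or 3 or vehicle replicate 2 or 3 (0.0597 to 0.0676) and when the compared groups were fitted alone (0.0693).

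KIF5C moved most among the transport kinesins. Its normalised counts at 24 h were 876, 997 and 964 in vehicle, 1019, 1042 and 1006 under 1 µM AU2-94, 1162, 1001 and 880.3 under 2 µM, 1289, 1384 and 1291 under 1 µM atirmociclib, 1215, 1224 and 1182 under 2 µM and 1177, 1104 and 1059 under ribociclib. At 72 h they were 776, 765 and 781 in vehicle, 1062, 1218 and 1128 under 1 µM AU2-94, 1178, 1292 and 1127 under 2 µM, 1912, 2123 and 2226 under 1 µM atirmociclib, 2217, 2164 and 2434 under 2 µM and 1457, 1485 and 1544 under ribociclib. The 72 h vehicle libraries were the lowest of all, those with AU2-94 and ribociclib lay above them, and the 6 with atirmociclib were the highest, without overlap between these. KIF5C rose by 1.43 and 1.55 on the log2 scale with atirmociclib at 1 and 2 µM at 72 h (SE 0.07, adjusted p 1.42e-11 and 3.17e-12), by 0.95 with ribociclib and by 0.55 and 0.63 with AU2-94. At 24 h it rose by 0.48 and 0.35 with atirmociclib and 0.24 with ribociclib (SE 0.08), and the AU2-94 values of 0.11 and 0.09 did not pass. The ribociclib call at 24 h was lost without ribociclib replicate 1 or 2 or vehicle replicate 1 or 3 (adjusted p 0.0514 to 0.138), and with equal totals (0.108). KIF5A stayed low, between 0.528 and 28.7 normalised counts, and did not pass at 72 h, the only time it was tested.

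KIF1A, KIF1B and KIF1C are fast motors of the kinesin-3 group that carry vesicles and, in the case of KIF1B, mitochondria. KIF1A was lower with all 5 treatments at 24 h (log2 fold change -0.25 to -0.20, SE 0.04, adjusted p 0.000122 to 0.000983) and higher at 72 h with both atirmociclib doses and ribociclib (0.23, 0.28 and 0.14, SE 0.05). KIF1B was lower at 24 h with both AU2-94 doses and ribociclib (-0.15, -0.22 and -0.18, SE 0.06) and higher at 72 h with atirmociclib at 1 µM (0.16). KIF1C passed at 72 h in both directions, with AU2-94 at 1 µM (-0.24) and atirmociclib at 2 µM (0.26, SE 0.09). KIF13A, KIF13B and KIF16B, related motors of endosomes and other membranes, divided: KIF13B was higher at 72 h with 4 treatments (0.42 to 0.68, SE 0.11) and not with atirmociclib at 2 µM (0.08), KIF13A passed nowhere, and KIF16B rose with atirmociclib at 1 µM at 24 h (0.49) and fell with 2 µM at 72 h (-0.38, SE 0.12).

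KIF3A, KIF3B and KIF3C form kinesin-2, which with the adaptor KIFAP3 moves cargo along cytoplasmic microtubules and, as KIF3A with KIF3B, along cilia. KIF3C was higher at 72 h with both AU2-94 doses and atirmociclib at 1 µM (0.53, 0.57 and 0.52, SE 0.15). KIF3B was higher with atirmociclib at 2 µM at 24 h (0.16, SE 0.05) and lower with AU2-94 at 1 µM and ribociclib at 72 h (-0.14 and -0.21, SE 0.05), and KIF3A passed once, with AU2-94 at 1 µM at 72 h (0.36, SE 0.13). KIF17, the motor of kinesin-2 that works as a homodimer, was low in most libraries but reached 65.8 in replicate 2 of atirmociclib at 2 µM at 24 h. The minus-end motor KIFC2 rose with every treatment at 72 h. Its 72 h normalised counts were 778, 765 and 777 in vehicle, 1029, 994 and 1211 under 1 µM AU2-94, 1021, 1171 and 1071 under 2 µM, 1221, 1241 and 1188 under 1 µM atirmociclib, 1341, 1307 and 1277 under 2 µM and 1219, 1367 and 1344 under ribociclib. All 15 treated libraries lay above vehicle, with log2 fold changes of 0.47 to 0.76 (SE 0.07, adjusted p 1.01e-07 to 6.10e-05). At 24 h all 5 values of KIFC2 were negative (-0.41 to -0.11, SE 0.10) and that with ribociclib passed (adjusted p 0.00361). FOXH1, on the opposite strand, covers 17.8% of its exon bases and had a mean of 8.80 normalised counts. KIFC3, another minus-end motor, was at 0 in 2 libraries, was not tested at 24 h and passed with no treatment at 72 h.

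Of the 13 kinesins with other roles, KIF24 fell with every treatment at 24 h. It takes microtubules apart at the mother centriole and holds back the growth of a cilium. Its normalised counts at 24 h were 565, 517 and 492 in vehicle, 289, 272 and 262 under 1 µM AU2-94, 187, 309.9 and 251 under 2 µM, 165, 207 and 204 under 1 µM atirmociclib, 179, 148 and 171 under 2 µM and 233, 211 and 221 under ribociclib. At 72 h they were 441, 533 and 541 in vehicle, 397, 476 and 428 under 1 µM AU2-94, 412, 417 and 392 under 2 µM, 328, 378 and 347 under 1 µM atirmociclib, 355, 378 and 406 under 2 µM and 346, 381 and 396 under ribociclib. All treated libraries were below vehicle at 24 h, and at 72 h 1 library with AU2-94 at 1 µM (476) lay above the lowest vehicle library (441). KIF24 had log2 fold changes at 24 h of -0.93 and -1.10 for the AU2-94 doses, -1.45 and -1.66 for those of atirmociclib and -1.24 for ribociclib (SE 0.15, adjusted p 5.91e-08 to 0.000101), and of -0.52 to -0.22 at 72 h, where 4 of 5 passed. The 72 h call with AU2-94 at 2 µM was lost without its replicate 3 or vehicle replicate 2 or 3 (adjusted p 0.0816 to 0.103). KIF24 shares 144 exon bases with UBAP1 on the opposite strand, which had a mean normalised count of 1537 against 340 for KIF24. The strand setting of the counting is not given.

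KIF26A, a kinesin without motor activity known from signalling in enteric neurons, was present at low levels. Its normalised counts at 24 h were 27.0, 24.8 and 28.6 in vehicle, 6.05, 3.39 and 4.87 under 1 µM AU2-94, 1.82, 4.49 and 4.76 under 2 µM, 1.14, 0 and 1.01 under 1 µM atirmociclib, 3.05, 2.18 and 3.27 under 2 µM and 1.02, 5.90 and 0.952 under ribociclib. The 72 h values were 15.5, 11.2 and 14.1 in vehicle, 9.90, 10.1 and 16.2 under 1 µM AU2-94, 14.6, 17.0 and 9.94 under 2 µM, 7.85, 3.83 and 11.7 under 1 µM atirmociclib, 9.87, 2.16 and 8.59 under 2 µM and 11.5, 7.85 and 7.05 under ribociclib. At 24 h vehicle and treated libraries did not overlap, whereas at 72 h they did. Only the vehicle libraries reached 10 normalised counts at 24 h, so KIF26A entered that test through vehicle alone. Such an entry favours a fall, so its 24 h calls and lack of overlap are described only. KIF26A had 24 h log2 fold changes of -2.29 and -2.64 for the AU2-94 doses, -4.09 and -2.87 for those of atirmociclib and -3.21 for ribociclib (SE 0.56, adjusted p 1.61e-05 to 0.00478), and no treatment passed at 72 h. With treated levels this low the size depends on the pseudocount: in place of 1, a pseudocount of 0.5 gave -4.67 and a pseudocount of 8 gave -1.998 with atirmociclib at 1 µM. Over the other treatments it gave -3.50 to -2.40 with 0.5 and -1.74 to -1.45 with 8. Each was past the adjusted p, but with the same entry through vehicle alone. KIF12, which is known from kidney and bile duct epithelium, differed the other way. It was counted at 13.7, 21.7 and 25.3 in vehicle, 6.75, 30.8 and 24.7 under 1 µM AU2-94, 18.2, 17.5 and 13.8 under 2 µM, 40.5, 10.8 and 32.2 under 1 µM atirmociclib, 24.0, 15.9 and 14.1 under 2 µM and 10.4, 6.16 and 12.4 under ribociclib at 24 h. At 72 h its counts were 12.3, 17.8 and 29.4 in vehicle, 18.4, 40.4 and 38.6 under 1 µM AU2-94, 33.6, 45.5 and 37.2 under 2 µM, 37.5, 36.9 and 38.3 under 1 µM atirmociclib, 58.9, 28.4 and 23.1 under 2 µM and 69.0, 53.7 and 48.4 under ribociclib. Replicates were spread at 24 h, and at 72 h the ribociclib libraries were all above vehicle. At 72 h KIF12 rose with ribociclib by 1.55 (SE 0.36, adjusted p 0.00264; background for higher levels past 2-fold 2.95%). The calls with AU2-94 at 2 µM (1.00, adjusted p 0.0409, but 0.0554 with the replicate block; background 3.02%) and with atirmociclib at 1 µM (0.97, adjusted p 0.0369) were each lost without any replicate of the treated group or without replicate 1 or 2 of vehicle (adjusted p 0.0552 to 0.178). Both were also lost with no filter (0.0842 and 0.0770) and with quantile normalisation (0.122 and 0.0816), and that with AU2-94 with no trend (0.0552).

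The rest of this class had few calls, none of them past 2-fold. For the low genes KIF6, KIF7 and KIF25 the SE was 0.41 to 0.67, so the lack of a call there does not mean little change. KIF21A, which pauses microtubule growth at the cell edge, was lower at 72 h with 4 treatments (log2 fold change -0.44 to -0.31, SE 0.11), and its relative KIF21B was higher with ribociclib at 72 h (0.96, SE 0.27, adjusted p 0.0117). KIF2A, the depolymerising relative of KIF2C, passed once, with atirmociclib at 1 µM at 24 h (-0.30, SE 0.08), and 18.7% of its exon bases overlap DIMT1 on the other strand. KIF6, KIF9 and KIF27, which are linked to cilia, and KIF7, a regulator of Hedgehog signalling, did not pass with any treatment, and KIF27 shares near-identical stretches with unnamed genes, which makes its level uncertain. TICRR, on the opposite strand, covers 10.8% of the exon bases of KIF7 and had a mean normalised count of 998, against 11.7 for KIF7. KIF25 was tested at 72 h alone and did not pass, and KIF19 and KIF26B, at or below 8.06 normalised counts in every library, were not tested. In all, 34 of the 42 kinesins were tested at 24 h and 38 at 72 h.

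**Figure D4:**
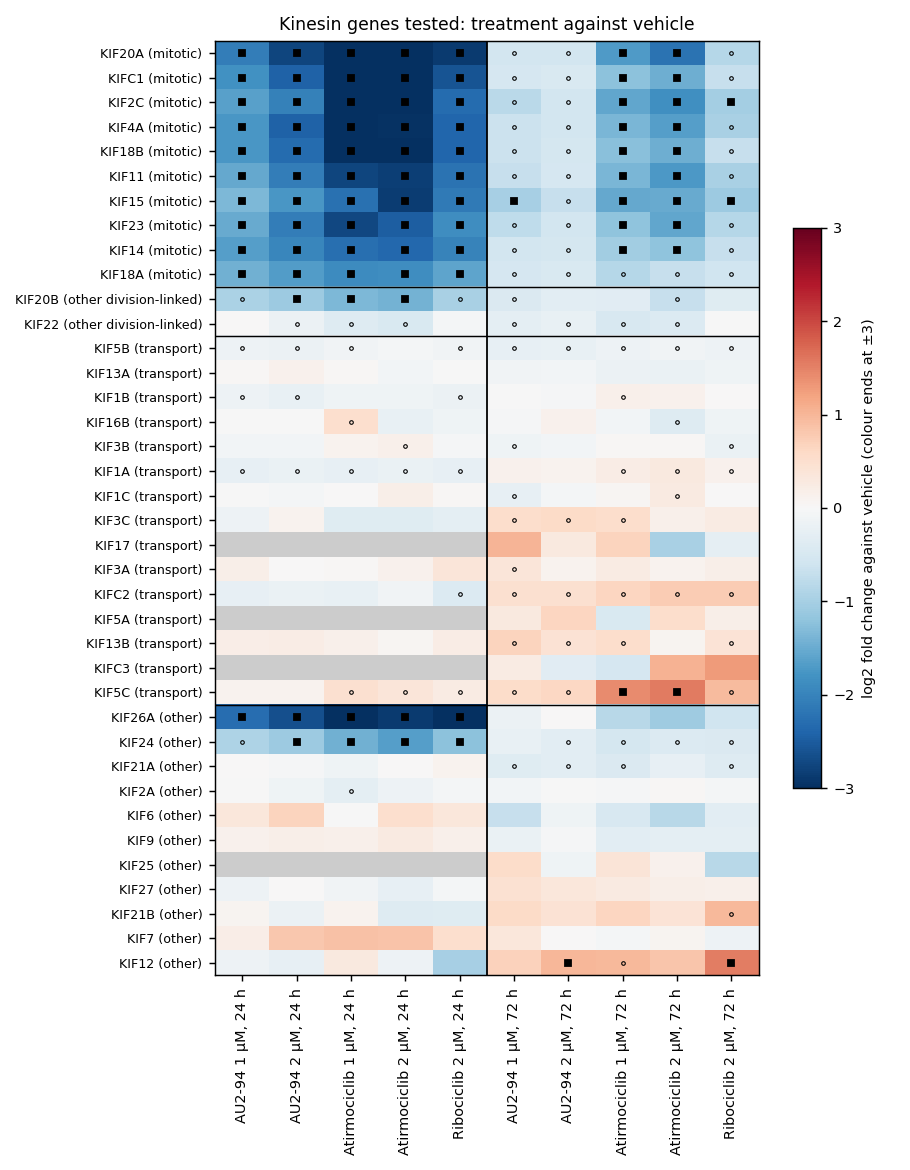
Log2 fold change against the vehicle of the same time point for the 38 kinesins tested, by treatment at 24 h (left) and 72 h (right); colour ends at ±3, filled squares mark adjusted p at most 0.05 with 2-fold, open circles adjusted p at most 0.05 alone, and grey was not tested. The 10 mitotic rows are lower in every column, and among the transport rows KIF5C with atirmociclib at 72 h has the highest values (1.43 and 1.55).

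The compounds were compared at matched dose and time in 4 contrasts at each time, with p adjusted over all genes tested in each. At 24 h the mitotic kinesins were lower with atirmociclib than with AU2-94 for 9 of 10 genes at 1 µM (background 3.16%) and 8 of 10 at 2 µM (background 4.31%). At 72 h this held for 8 of 10 at 1 µM (background 3.7%) and 9 of 10 at 2 µM (background 8.73%). Against ribociclib, 2 µM atirmociclib gave lower levels for 7 of 10 at 24 h (background 2.81%) and 8 of 10 at 72 h (background 4.35%). KIF20A differed most in these comparisons: its level with atirmociclib differed from that with AU2-94 by -2.34 and -1.55 at 1 and 2 µM at 24 h and by -1.14 and -1.66 at 72 h on the log2 scale (SE 0.22 and 0.09), and its differences from ribociclib were -1.42 and -1.36. KIF18A passed in none of the 8 contrasts, although all its 24 h and 72 h differences between atirmociclib and the other compounds were negative, the widest being -0.44 (95% interval -0.87 to -0.01).

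Ribociclib and AU2-94 at 2 µM were closer to each other. At 24 h limma called 0 of 10 mitotic kinesins different (background 0.0186% lower), and at an unadjusted p under 0.05 there was 1, KIF15, with -0.37 (95% interval -0.73 to -0.01). The intervals at 24 h allowed differences in either direction for other members, for example -0.13 (95% interval -0.58 to 0.33) for KIF20A, -0.12 (95% interval -0.32 to 0.07) for KIF11 and 0.21 (95% interval -0.16 to 0.58) for KIF23. At 72 h all 10 differences were negative and 3 passed, those of KIF11 (-0.47, adjusted p 0.00338), KIF2C (-0.48, adjusted p 0.0132) and KIF4A (-0.41, adjusted p 0.0107), against a background of 1.38%. Without replicate 3 of AU2-94 at 2 µM the count at 72 h was 1, and it was also 1 when only the groups of the contrast were fitted.

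Of the 12 transport kinesins tested at 24 h, 3 and 4 were higher with atirmociclib than with AU2-94 at 1 and 2 µM (background 1.48% and 5.12%). At 72 h it was 3 and 6 of 15 (background 4.53% and 11.1%). Atirmociclib gave higher levels than ribociclib for 1 and 2 transport kinesins at 24 h and 72 h (background 1.83% and 4.83%), and ribociclib higher levels than AU2-94 for 0 and 2 (background 0.0186% and 1.96%). The counts of transport kinesins lower in these contrasts are not given here, so the counts above show 1 direction only. Other members differed the other way. At 72 h the group means of KIF16B, KIF13B and KIF3C were 253, 505 and 240 with 2 µM atirmociclib. With 2 µM AU2-94 they were 364, 653 and 324. KIF5C was higher with atirmociclib than with AU2-94 at both doses and times (0.37 and 0.26 at 24 h, 0.88 and 0.92 at 72 h). At 72 h it was higher with atirmociclib than with ribociclib (0.60, adjusted p 1.40e-05) and higher with ribociclib than with AU2-94 (0.32, adjusted p 0.0174). KIF22 was lower with atirmociclib than with the compared compound in all 6 such contrasts (-0.41 to -0.18, adjusted p 7.60e-05 to 0.0460). KIF3B was higher with atirmociclib in 5 of these 6 (0.17 to 0.26). KIFC2 at 72 h was higher with atirmociclib and with ribociclib than with AU2-94 at 2 µM, by 0.27 in each case (adjusted p 0.0126 and 0.0485). KIF24 was lower with atirmociclib than with AU2-94 at 24 h at both doses (-0.52 and -0.56, adjusted p 0.0490 and 0.0210).

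AU2-94 at 2 µM rather than 1 µM lowered 2 of the 10 mitotic kinesins further at 24 h: KIF11 fell by 0.54 and KIF4A fell by 0.67 on the log2 scale (adjusted p 0.0117 and 0.00862; background 0.384%). All 10 differences were negative, and 9 had an unadjusted p under 0.05. The count of 2 rested on single libraries: it was 0 without replicate 3 of AU2-94 at 1 µM and 1 without replicate 1 of that group or replicate 1 or 2 of AU2-94 at 2 µM. At 72 h limma called 0 of 10 (background 0% lower), all 10 differences between the AU2-94 doses were above 0 (highest 0.32, KIF15), and 2 had an unadjusted p under 0.05. The share of all genes higher at 2 µM is not given here. For atirmociclib, 0 of 10 passed at 24 h (background 0.0062% lower), with differences from -0.61 for KIF15, the 1 gene with an unadjusted p under 0.05, to 0.28 for KIF23. At 72 h KIF11 and KIF20A were lower with 2 µM than with 1 µM (-0.34 and -0.50, adjusted p 0.0325 and 0.00729; background 0.936%). This count was 0 without replicate 1 of either dose and 1 without replicate 2 of the 1 µM group. Of the transport kinesins, KIF13B was lower with 2 µM than with 1 µM atirmociclib at 72 h (-0.44, adjusted p 0.0484).

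Whether the effects themselves differed between 24 h and 72 h was tested in a fit of all 36 libraries, by subtracting each 24 h effect from the 72 h effect. The change was positive, meaning a smaller fall at 72 h, in all 50 pairs of mitotic kinesin and treatment and passed in 48. By treatment, in the order used above, this was 9, 10, 9, 10 and 10 of 10 genes, against a background of 10.1%, 9.26%, 11.3%, 11.7% and 10.5% of 16850 genes. The exceptions were KIF15 with AU2-94 at 1 µM (0.34, adjusted p 0.397) and with atirmociclib at 1 µM (0.69, adjusted p 0.0636). The median change of the 10 was 1.02, 1.56, 1.59, 1.32 and 1.30, and KIF20A changed by 1.53, 2.21, 2.72, 2.10 and 2.03 (SE 0.25). In vehicle alone limma called 0 of the 10 different between 72 h and 24 h (background 3.64% lower and 3.85% higher), with values from -0.16 for KIFC1 to 0.38 for KIF15 and none with an unadjusted p under 0.05.

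**Figure D5:**
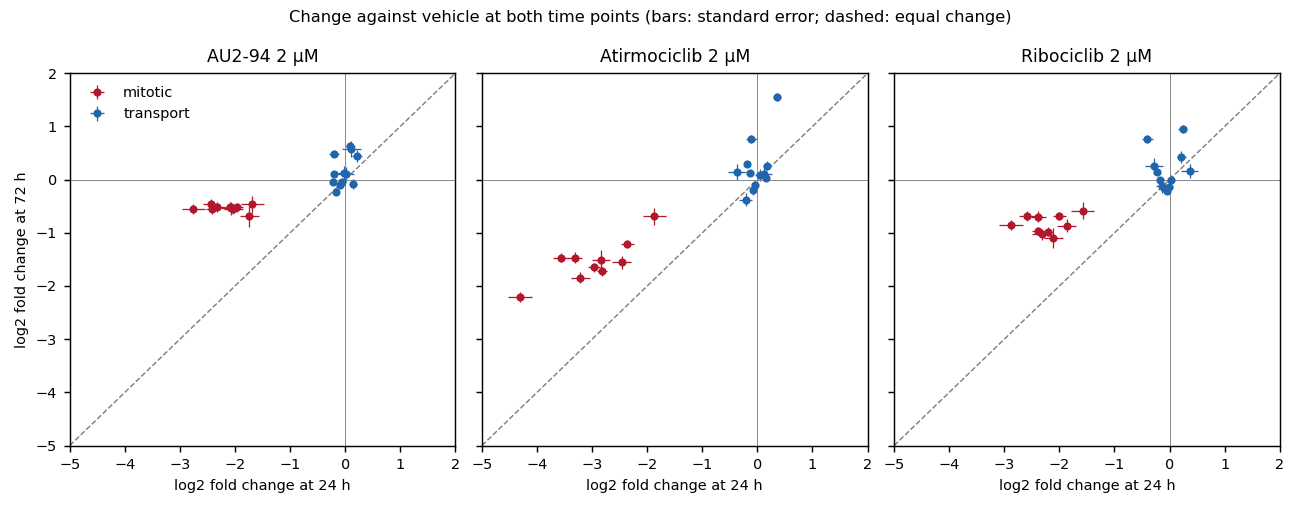
Log2 fold change against vehicle at 24 h (x) and 72 h (y) for mitotic (red) and transport (blue) kinesins with AU2-94, atirmociclib and ribociclib at 2 µM; bars are standard errors and the dashed line is equal change. Every mitotic point lies above the line and below 0 at 72 h, while transport points lie on both sides of 0 on each axis.

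Transport kinesins also changed between the time points, 5, 3, 5, 4 and 3 of 15 upwards in the same order. The background for upward changes was 10.1%, 9.26%, 11.3%, 11.7% and 10.5% of all genes. Downwards there was 1 (KIF16B with atirmociclib at 1 µM, -0.58, adjusted p 0.0141, background 10.6%). KIF1A, KIF5C and KIFC2 accounted for 15 of these 20 upward changes. For KIF1A the change was 0.30 to 0.48 (SE 0.06), from a lower level at 24 h to values above 0 at 72 h. KIFC2 changed by 0.69 to 1.17 (SE 0.12) and KIF5C by 0.44 to 1.20 (SE 0.11). In vehicle, KIF5C was lower at 72 h than at 24 h (-0.29, adjusted p 0.0157) and KIF1A higher (0.14, adjusted p 0.0347). KIF5B did not pass with any treatment (-0.09 to -0.05, SE 0.04).

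Partners of the kinesins were read beside them. The 13 partners of mitotic kinesins, among them the passenger complex subunits AURKB and BIRC5 and the microtubule bundler NUSAP1, were lower in 65 of 65 pairs of gene and treatment at 24 h, all past 2-fold (background over the treatments 2.4% to 4.82% of genes), and in 62 of 65 at 72 h (15.3% to 19.8%), 18 of them past 2-fold (0.838% to 3.67%). AURKB had log2 fold changes of -4.11 to -2.06 at 24 h and -2.09 to -0.72 at 72 h. NUSAP1 had -3.67 to -1.67 and -1.93 to -0.40, and BIRC5 -2.44 to -1.82 and -1.89 to -0.82. Of 8 proliferation genes that are no kinesins, all 40 pairs were lower at both times, with 37 and 18 past 2-fold, against the same backgrounds and 13.5% to 16.2% lower at 24 h. The summed level of these 8 was 16.4% to 37.4% of vehicle at 24 h and 34.1% to 63.5% at 72 h, beside 12.1% to 30.7% and 33.0% to 69.1% for the mitotic kinesins. The part of general proliferation RNA in the level of the mitotic kinesins was not tested. The 17 partners of transport kinesins read here, such as the kinesin light chains, were lower in 10 and higher in 12 of 85 pairs at 24 h (background 13.5% to 16.2% and 14.3% to 18.6%). At 72 h they were lower in 15 and higher in 26 (background 15.3% to 19.8% and 14.2% to 20.9%). The largest change among them was in MAP7D2, a microtubule-associated protein that recruits kinesin-1, with log2 fold changes of 0.10 to 2.39 at 24 h and 0.89 to 2.70 at 72 h.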

How the data were processed

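RNA from LNCaP cells in 12 groups of 3 biological replicates was sequenced as total RNA libraries, and groups were taken from the sample labels. Per the submitters' processing notes, the authors ran the nf-core/rnaseq pipeline with STAR 2.6.1d on GRCh38, and DESeq2. The annotation release, the read counter and the strand setting are not given in the sources used here. The deposited table holds a signal, normalised counts that are not whole numbers, for 29872 genes, so no count model was used and the depth behind a value is unknown. Intervals and standard errors describe the spread between libraries.

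Genes with at least 10 normalised counts in at least 3 libraries of a fit were tested with limma 3.58.1 (R 4.3.3; trended eBayes) after log2(normalised count + 1). A fold change on this scale understates the change of low genes. The 6 groups of a time point shared 1 fit, and all 36 libraries another for changes between time points. P-values were adjusted by Benjamini-Hochberg over all genes of a contrast, and a gene was called at an adjusted p of at most 0.05, or, where stated, also with a change of 2-fold or more. The 24 h fit was checked on simulated libraries in which some genes were changed. Their values were drawn from a normal spread on the log2 scale, and only genes above a set level were changed. The outcome is not given here, and the check could not cover the low kinesins. The 72 h fit and the fit of all 36 libraries were not checked in this way. From the marker and partner lists, 3 genes are not reported here. The members of the family, their classes and the lists were chosen with earlier results of these data known. Values in every library were given for the 10 mitotic kinesins, KIF5B and any kinesin called with 2-fold in at least 1 treatment. KIFC2 at 72 h was added after its values were seen, and of each partner and proliferation list the 3 genes with the largest mean change at 24 h could be named.

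Levels per kilobase used exon lengths of GENCODE release 44, and near-identical stretches of at least 100 bases at 98% identity were found with BLAST 2.17.0. Promoters came from RefSeq on GRCh38.p14. The labels give the replicate number as a batch, so a pairing of libraries by number was examined. The main fits were not paired and held no batch term. The deviations from group means of libraries with the same number correlated on average at 0.00179 for the 45 pairs of 24 h (-0.0898 to 0.112) and -0.00217 for those of 72 h (-0.0797 to 0.0502). The 90 pairs with different numbers gave -0.000884 and 0.00109. The replicate block was an alternative, beside other pseudocounts (0.5 and 8), filters (none, or a mean of at least 100), normalisations (quantile, equal totals, TMM), no trend, fits of the compared groups alone and leaving out each library. Tables were made with Python 3.11.15, pandas 2.3.3 and numpy 2.4.6, and figures with matplotlib 3.10.9.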

Additional observations from a re-analysis of the deposited data

Results flagged for a closer look

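The effect of a treatment against vehicle differed between 24 h and 72 h, by a test of the difference itself in a fit of all 36 libraries, for 9, 10, 9, 10 and 10 of the 10 mitotic kinesins under the treatments in the order AU2-94 1 µM, AU2-94 2 µM, atirmociclib 1 µM, atirmociclib 2 µM and ribociclib. In each of these the fall was smaller at 72 h, and over all genes 9.26% to 11.7% changed upwards. The same test picked out 5, 3, 6, 4 and 3 transport kinesins in the same order, all but KIF16B with atirmociclib at 1 µM (10.6% of all genes downwards) changing upwards. KIF5C was among them with every treatment, its effect at 72 h minus that at 24 h being 0.44 and 0.53 with AU2-94 at 1 and 2 µM, 0.94 and 1.20 with atirmociclib and 0.71 with ribociclib on the log2 scale. Its vehicle level also fell between the times.

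Among the remaining kinesins that were described library by library, KIF24 differed between the times with every treatment, by 0.71 and 0.79 with AU2-94, 0.93 and 1.25 with atirmociclib and 0.81 with ribociclib. KIF26A differed with AU2-94 at 1 and 2 µM (2.11 and 2.64), atirmociclib at 1 µM (3.26) and ribociclib (2.61). These values lie at levels where the pseudocount sets part of the size. Its 24 h effects came from an entry through vehicle alone, which favours a fall, so these differences are described only. The vehicle mean of KIF26A was 26.8 normalised counts at 24 h and 13.6 at 72 h. By limma that change did not pass (-0.94, SE 0.49, adjusted p 0.273), but it is part of each difference. KIF20B differed with atirmociclib at 1 µM (1.00) and KIF12 with ribociclib (2.55). Time and seeding density cannot be told apart in any of these differences. These values come from contrasts that share the vehicle libraries of their time point.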

How the results depend on the processing

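The 24 h count of 50 falls among 50 pairs of mitotic kinesin and treatment was 50 under all alternatives run, and that at 72 h stayed between 46 and 50. With the replicate block the mitotic counts were 50, 50 and, for 2-fold at 72 h, 21, as without it. The block moved no count by over 1.5 times (transport kinesins at 24 h 12 lower and 6 higher, at 72 h 21 higher) and, of the values given library by library, it ended only the 72 h calls of KIF12 with AU2-94 at 2 µM and of KIF20B with AU2-94 at 1 µM. Counts that moved by over 1.5 times were few. Transport kinesins lower at 24 h (13) were 20 with equal totals. Those higher at 24 h (5) were 11 with quantile normalisation, 3 with equal totals and 3 to 9 on leaving out single libraries (9 without replicate 2 of atirmociclib at 1 µM, 3 without replicate 3 of vehicle). In fits of the compared groups alone, which have fewer samples, mitotic kinesins lower with atirmociclib than ribociclib at 24 h (7) were 4, those lower with ribociclib than AU2-94 at 72 h (3) were 1, and the dose counts (2 each) were 0 for AU2-94 at 24 h and 0 for atirmociclib at 72 h, the last also 1 with quantile normalisation and 1 with no trend. Leaving out single libraries gave 0 to 3 for the AU2-94 dose at 24 h, 1 to 3 for ribociclib against AU2-94 at 72 h and 0 to 2 for the atirmociclib dose at 72 h. The cause was not tested. The other 577 recomputed counts stayed within 1.5 times. Values of single genes and class medians were recomputed together. Of these, 4381 stayed the same, meaning a kept call for a gene or a shift within 1 SD of the libraries for a median. A call was lost by 64 gene values, and 40 medians, which carry no test, moved further. No called value changed sign. The unknown depth limits the low kinesins most.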
